A study of Mus musculus with 23 samples.

Results

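The genes described here are 10 epithelial markers of the surface ectoderm and periderm of the limb bud. They were chosen by symbol, as markers that could serve as a measure of the ectoderm share, and all 10 were found among the 34682 rows of the comparison of Inv1DelCTCF with Inv1. They are the basal keratins Krt5, Krt14 and Krt15, the simple epithelial keratins Krt8, Krt18 and Krt19, the junction and adhesion genes Cdh1, Cldn6 and Epcam, and the splicing regulator Esrp1. The RNA came from distal forelimb tissue, dissected at E11.5 from mice engineered with CRISPR/Cas9 or from wild type mice, and all libraries carry the cell type label G4 ESC, an embryonic stem cell line. Inv1 (3 libraries) is an engineered inversion that moves an enhancer cluster from the domain of Epha4 into a gene-dense region, and Inv1DelCTCF (2 libraries) adds, by its name, the deletion of a CTCF site to that inversion. Both groups therefore carry Inv1, and no wild type library enters their comparison. The tables of Inv1 (3 libraries), Inv2 (4), Inv3 (3) and Inv4 (3) against wild type (5) list none of the 10 genes and enter only for 3 ectodermal genes of chromosome 1. The files hold the authors' group comparisons and no value per library. Depth is therefore unknown, the spread between libraries is seen only through the standard error (SE) of each fold change, and the libraries, called biological replicates by the submitters, are not tied to litters in the sources used here.

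The limb bud is a core of mesenchyme under a thin sheet of ectoderm. The ectoderm has a basal layer, marked by the paired keratins 5 and 14, and an outer flat layer, the periderm, rich in the simple keratins 8, 18 and 19. Keratin filaments are built from pairs of an acidic type I and a basic type II chain, so Krt5 with Krt14 and Krt8 with Krt18 are the classical partners. Cdh1 encodes E-cadherin, the adhesion molecule of epithelial adherens junctions. Cldn6 encodes a tight junction claudin of embryonic epithelia, and Epcam encodes an epithelial cell adhesion molecule. Esrp1 encodes an RNA-binding protein that sets epithelial splice forms, among them that of the FGF receptor gene Fgfr2, which receives FGF signals from the limb mesenchyme.

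The promoters of both keratin pairs are shown because partners are the closest comparison among these genes: Krt8 and Krt18 were both called, and Krt5 was called where Krt14 was not. The sequences are the 250 bases before the annotated start, from RefSeq in the build GRCm38.p6, and 6 of the 10 genes matched that table. Krt5 lies at chr15:101712906-101713155 on the minus strand, Krt14 at chr11:100206031-100206280 (minus), Krt8 at chr15:102004343-102004592 (minus) and Krt18 at chr15:102027966-102028215 (plus). Krt8 and Krt18 are next to each other in the RefSeq gene order, on opposite strands. Capitals mark matches, on either strand, to CACCTG (an E-box of the kind bound by Snail and Zeb repressors) and to GCCNNNGGC (an AP-2-type motif).
Krt5: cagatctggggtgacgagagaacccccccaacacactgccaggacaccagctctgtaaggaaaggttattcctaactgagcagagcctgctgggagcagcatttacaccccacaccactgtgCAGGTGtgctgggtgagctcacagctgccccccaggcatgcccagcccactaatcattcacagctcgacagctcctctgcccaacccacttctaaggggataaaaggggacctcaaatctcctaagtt
Krt14: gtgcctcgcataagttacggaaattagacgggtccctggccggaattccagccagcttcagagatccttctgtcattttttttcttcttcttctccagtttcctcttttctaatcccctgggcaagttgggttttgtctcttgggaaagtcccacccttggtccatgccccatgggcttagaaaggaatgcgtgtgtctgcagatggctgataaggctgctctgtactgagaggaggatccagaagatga
Krt8: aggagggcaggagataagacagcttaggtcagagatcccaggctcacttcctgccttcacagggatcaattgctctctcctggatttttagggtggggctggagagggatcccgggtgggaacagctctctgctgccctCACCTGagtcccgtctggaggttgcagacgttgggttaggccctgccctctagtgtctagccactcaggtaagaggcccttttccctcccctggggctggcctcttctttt
Krt18: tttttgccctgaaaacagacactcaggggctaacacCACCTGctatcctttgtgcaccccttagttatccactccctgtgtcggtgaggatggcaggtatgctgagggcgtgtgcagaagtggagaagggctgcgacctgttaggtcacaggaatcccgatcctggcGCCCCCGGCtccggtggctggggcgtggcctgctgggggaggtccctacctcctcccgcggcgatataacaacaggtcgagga

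The E-box CACCTG was present in the 250 bases of 5 of the 6 promoters, those of Krt5, Krt8, Krt18, Cldn6 and Epcam, and in 17.2% of all 32851 promoters of the table. It lay 122 bases before the start in Krt5, 105 in Krt8, 208 in Krt18 and 87 in Cldn6, and Epcam had a match 13 and another 181 bases before its start. In Krt14 these letters were not in the window. Of 3 further motifs searched, GGGCGG (a GC box) was in 2 of the 6 against 32.7% of all promoters, GCCNNNGGC in 1 against 13.7%, and AACNNGTT (a Grainyhead-type motif) in 0 against 3.64%. No match overlapped another. A match describes letters and is not a measured binding site. Epcam has matches and was not called, and for Cdh1, which was called, no promoter sequence was at hand. A link between matches and calls was not tested.

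In Inv1DelCTCF, 5 of the 10 genes fell relative to Inv1 and none rose. Krt8, Krt18, Cldn6, Cdh1 and Krt5 were 40.3%, 32.3%, 30.8%, 23.9% and 19.0% lower, in the order of size, in the authors' deposited table. Epcam, Krt14 and Esrp1 had values of 0.885, 0.921 and 0.935 of Inv1 that did not pass, Krt19 lay close to its Inv1 level, and Krt15 had a value above it that did not pass. A gene was called where p after Benjamini-Hochberg adjustment was under 0.05 in the authors' DESeq2 Wald test, and 9 of the 10 genes had an adjusted p. Over all 11218 genes with an adjusted p, 7.89% were called lower and 3.81% higher. Of the genes with a mean count at least as high as that of Krt15, the least abundant of the 9, 8.51% were called lower. After a trend in GC content and transcript length was subtracted, 1 of the 5, Cldn6, was still called, with log2 values of -0.44 for Cldn6, -0.60 for Krt8, -0.43 for Krt18, -0.35 for Cdh1 and -0.16 for Krt5, against -0.53, -0.74, -0.56, -0.39 and -0.30 before. In this bulk tissue, fewer ectoderm cells and less of these RNAs per cell cannot be told apart. The part of the GC and length trend in the falls was not tested further.

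**Figure D1:**
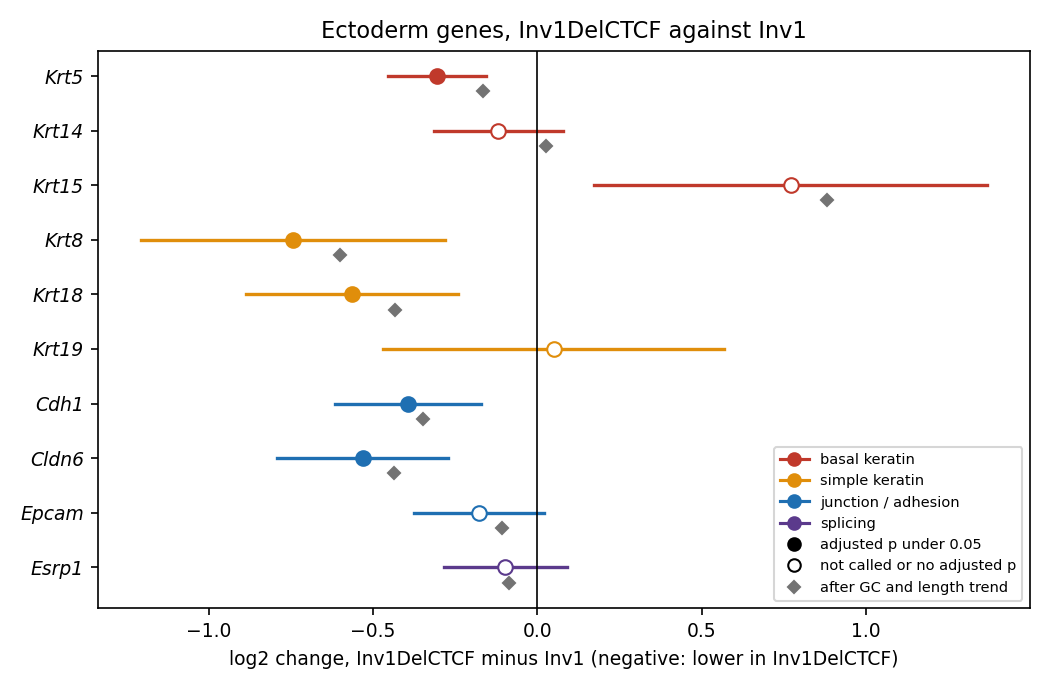
Log2 change of each gene, Inv1DelCTCF minus Inv1, with its 95% interval from the SE, coloured by role; filled circles passed an adjusted p of 0.05 and diamonds give the value after a GC and length trend was subtracted. Krt8, Krt18, Cdh1, Cldn6 and Krt5 lie left of 0 with filled circles, and Krt15 alone lies well to the right.

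Among the basal keratins, Krt5 fell while its partner Krt14 was not called. Krt5, the type II chain, had a mean of 4111 normalised counts over the 5 libraries, the highest of the 10 genes. Its level, rebuilt from that mean and the fold change, was 4450.4 in Inv1 and 3603 in Inv1DelCTCF. The log2 change was -0.30 (p = 0.00231 after adjustment, SE 0.076), which is 0.810 of the Inv1 level with a 95% interval of 0.730 to 0.898, in the authors' deposited table. Krt14, the type I chain, had rebuilt levels of 1757 and 1619, with a log2 change of -0.12 (p = 0.469 after adjustment, SE 0.1002) and a fold interval of 0.804 to 1.06 in the authors' deposited table. The log2 changes of Krt5 and Krt14 were 0.19 apart (-0.19 for Krt5 minus Krt14) with overlapping 95% intervals. The difference within the pair was not tested.

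Krt15, a further type I keratin of basal cells, went the other way without passing. It had rebuilt levels of 148 in Inv1 and 254 in Inv1DelCTCF. The log2 change was 0.77 (SE 0.305), a fold of 1.71 with a 95% interval of 1.13 to 2.59, with an unadjusted p of 0.0114 and an adjusted p = 0.0757 in the authors' deposited Wald test. Of the 45 pairs of the 10 genes, 8 had 95% intervals that did not overlap, and each of those 8 paired Krt15 with another gene. The differences within these pairs were not tested, and the share over pairs of all genes was not computed. Krt19 was the single gene whose interval overlapped that of Krt15. The intervals of the other 9 genes all overlapped each other, from Krt8 at -0.74 to Krt19 at 0.049 on the log2 scale.

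Among the simple keratins, both partners fell. Krt8, the type II chain, had rebuilt levels of 430.2 in Inv1 and 257 in Inv1DelCTCF, and Krt18, the type I chain, levels of 438 and 296. In the authors' deposited table Krt8 had a log2 change of -0.74 (p = 0.0220 after adjustment, SE 0.236), or 0.597 of Inv1 (95% interval 0.433 to 0.823). Krt18 had one of -0.56 (p = 0.0117 after adjustment, SE 0.165), or 0.677 of Inv1 (0.541 to 0.847), in the authors' deposited table. Their difference of -0.18 (Krt8 minus Krt18) lay within overlapping intervals. Krt19, a small type I keratin also found in periderm, had rebuilt levels of 88.7 and 91.8, a log2 change of 0.049 (SE 0.264) in the authors' deposited table, which leaves its adjusted p empty. Its fold interval of 0.723 to 1.48 includes the falls of Krt5 and Cdh1, so at a mean of 89.9 a change of their size was not detectable. The folds of Krt8 (0.597), Krt18 (0.677) and Cldn6 (0.692) lay below that interval. Their own intervals overlap that of Krt19, and the differences were not tested.

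Of the junction genes, Cldn6 and Cdh1 fell and Epcam was not called. Cldn6 had rebuilt levels of 725 in Inv1 and 501.5 in Inv1DelCTCF, with a log2 change of -0.53 (p = 0.00234 after adjustment, SE 0.133) and a fold of 0.692 (95% interval 0.577 to 0.829) in the authors' deposited table. Cdh1 had rebuilt levels of 1465 and 1115, with a log2 change of -0.39 (p = 0.00952 after adjustment, SE 0.113) and a fold of 0.761 (0.653 to 0.887) in the authors' deposited table. Epcam, about as abundant as Cdh1 in mean count, had levels of 1329 and 1176, a log2 change of -0.18 (p = 0.254 after adjustment, SE 0.101) and a fold interval of 0.771 to 1.02 in the authors' deposited table. Esrp1 had levels of 1041 and 974, a log2 change of -0.097 (p = 0.545 after adjustment, SE 0.095) and a fold interval of 0.821 to 1.06 in the authors' deposited table.

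Per kilobase of transcript, the order of the 10 genes was led by Krt5 and Krt14, while the third basal keratin, Krt15, stood near the end. In Inv1 the rebuilt level per kilobase was 2026 for Krt5, 1035.0 for Krt14, 652 for Epcam, 447 for Cldn6, 331 for Cdh1, 305 for Krt18, 269.5 for Esrp1, 219.7 for Krt8, 87.4 for Krt15 and 56.3 for Krt19. In Inv1DelCTCF, Krt15 (149) stood above Krt8 (131), and Esrp1 (252.0) and Cdh1 (252) came level, above Krt18 (206). These levels carry no error of their own, since no value per library was at hand. Summed over the 10 genes, the rebuilt levels came to 11874 in Inv1 and 9886 in Inv1DelCTCF, a ratio of 0.833, and without Krt5, the largest term, the ratio was 0.846. By role, the ratio was 0.861 for the basal keratins, 0.674 for the simple keratins and 0.793 for the junction genes. For lists of other ectoderm genes the ratio was 0.841 (junction and membrane), 0.855 (regulators), 0.749 (apical ridge) and 0.823 (ectodermal Wnt genes). For 46 other keratin genes it was 0.942, and over lists of other cell types it ran from 0.905 (endothelium) to 1.39 (muscle). The largest muscle term, Actc1, had levels of 3066 in Inv1 and 4945 in Inv1DelCTCF, with an SE of 0.551 for its log2 change. The GC and length trend was not subtracted from these sums.

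**Figure D2:**
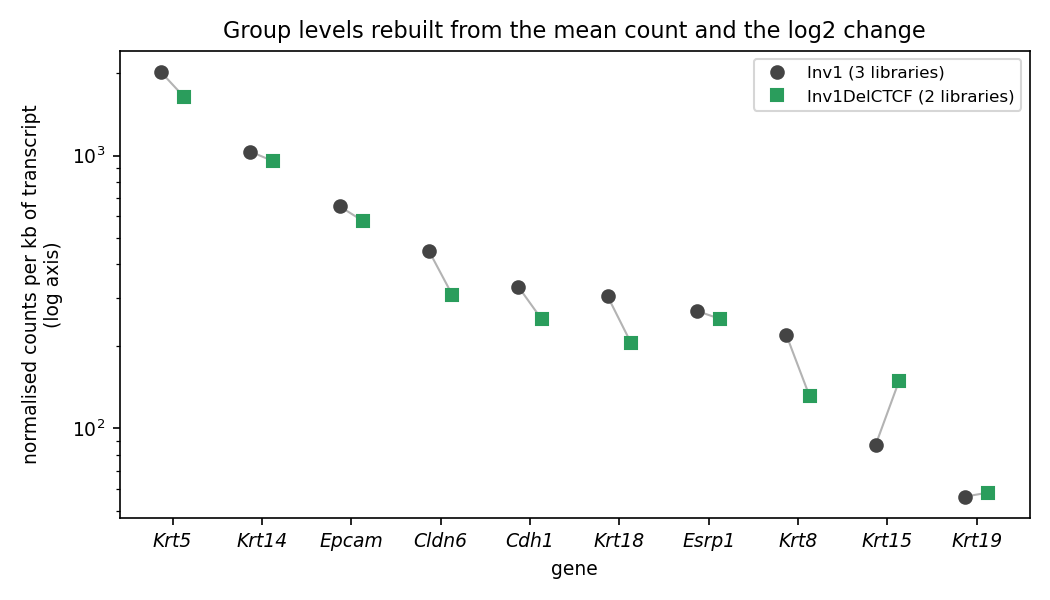
Rebuilt group level of each gene in normalised counts per kilobase of its longest transcript (log axis), as circles for Inv1 (3 libraries) and squares for Inv1DelCTCF (2 libraries), without error bars because no value per library was at hand. Krt5 leads at 2026 and 1640.0, and Krt15 (87.4 and 149) and Krt19 (56.3 and 58.2) are the genes whose squares lie above their circles.

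The spread between libraries differed among the genes. Set against the 500 genes nearest in mean count, the SE of Krt15 was at the 98.6th percentile and that of Krt8 at the 97.4th, 1.59 and 1.62 times the median SE of those neighbours. The SE of Cdh1 was at the 91.8th percentile, and those of Krt14, Cldn6 and Krt18 were between the 86.0th and the 86.8th. Epcam and Krt5 followed at the 77.4th and 70.4th, and Esrp1 (43.2) and Krt19 (33.8) were below the middle. The largest changes in either direction, those of Krt8 and Krt15, were thus those of the genes most variable for their level. Which library carries that spread was not tested, since the files hold no value per library.

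**Figure D3:**
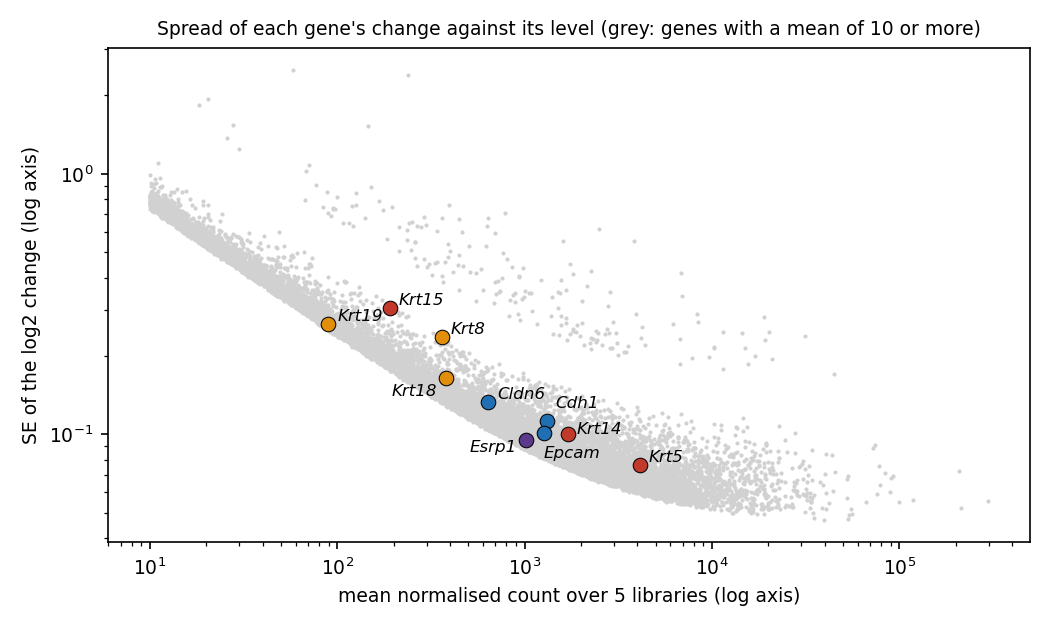
SE of the log2 change against the mean normalised count over the 5 libraries, both on log axes, for all genes with a mean of at least 10 (grey) and the 10 genes (coloured by role as in the plot of changes). Krt15 and Krt8 stand above the band of genes of their level, and Krt19 and Esrp1 lie within its lower part.

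The fold changes of this comparison moved, over all genes, with transcript GC content, and most of the keratins are rich in GC. Across 10945 genes with an adjusted p and a known transcript, all measured in the same 5 libraries, Spearman's rho between GC content and the log2 change was -0.517. The longest transcripts of the keratins had a GC content from 55.3% (Krt15) to 57.6% (Krt19), those of Cldn6, Epcam and Cdh1 54.4%, 52.7% and 50.7%, and that of Esrp1 48.7%, against a median of 49.7% over tested genes. Of the 3511 genes within the GC range of the 5 called genes, 11.6% were called lower.

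With the trend in GC content and length subtracted, Cldn6 had a log2 change of -0.44 (adjusted p = 0.0348), while Cdh1 had -0.35 (adjusted p = 0.0528), Krt18 -0.43 (0.124), Krt8 -0.60 (0.141) and Krt5 -0.16 (0.238). The subtracted trend was -0.14 for Krt5 and Krt8, -0.13 for Krt18, -0.096 for Cldn6 and -0.045 for Cdh1, so that the trend at Krt5 was near the size of the value that remained. Krt14 turned from -0.12 to 0.026, and Krt15 moved to 0.88 (adjusted p = 0.0776). The median over the 9 genes with a value was -0.16, beside 0.0074 over all 10945 genes. Before the subtraction the medians were -0.30 for the same 9 genes and -0.014 over all tested genes. After the subtraction 1.64% of all 10945 genes were called lower. The part of this trend in the falls was not tested further.

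**Figure D4:**
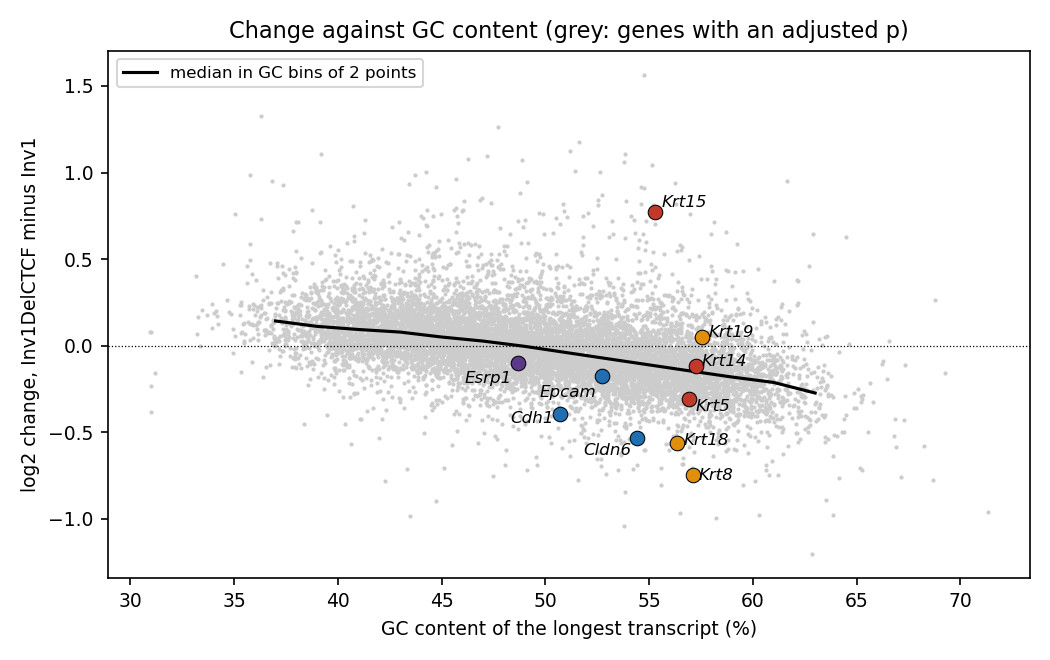
Log2 change, Inv1DelCTCF minus Inv1, against the GC content of the longest transcript for all genes with an adjusted p (grey), with the median in bins of GC content (line, bins with at least 20 genes) and the 10 genes coloured by role, Krt19 included although it has no adjusted p. The line slopes down, Krt14 lies near it, Krt5 lies a little below it, and Krt8, Krt18, Cldn6 and Cdh1 lie further below.

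Other epithelial genes were called in the same direction. Across 70 further genes in 4 lists of the ectoderm, 49 had an adjusted p, 13 of these fell and 0 rose. Over all tested genes 7.89% were called lower and 3.81% higher. Values below 0 were 44 of the 49, beside 5962 of the 11218 tested genes, and the median log2 changes were -0.26 and -0.014. In the list of junction and membrane genes, 8 of 27 with an adjusted p fell. Among them were St14, a membrane serine protease of epithelia, at -0.75 (p = 0.00128 after adjustment, SE 0.179), and Jup, the plakoglobin of desmosomes and adherens junctions, at -0.36 (p = 0.00172 after adjustment, SE 0.088), in the authors' deposited table. F11r, a tight junction adhesion molecule, fell by 0.35 (SE 0.093) and Lama5, a laminin chain of the basement membrane, by 0.40 (SE 0.106) on the log2 scale in the authors' deposited table.

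Of the epithelial regulators, 2 of 10 with an adjusted p fell against 7.89% of all tested genes. They were Sfn, which encodes the epithelial 14-3-3 protein sigma, at -0.46 (p = 0.00286 after adjustment, SE 0.118), and the AP-2 factor gene Tfap2c at -0.69 (p = 0.0136 after adjustment, SE 0.207) in the authors' deposited table. The defining regulators of surface ectoderm were not called. Trp63, the master factor of stratified epithelium, had a log2 change of -0.13 (p = 0.258 after adjustment, SE 0.076), while Grhl2 was at -0.16 (SE 0.118) and Grhl3 at -0.25 (SE 0.136) in the authors' deposited table. With means of 1610.4, 534 and 432 normalised counts, they and the keratins were all detected, so the defining markers of surface ectoderm were present in this tissue.

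The genes of the apical ridge, the thickened ectoderm at the limb tip that secretes FGFs, and the ectodermal Wnt genes were called lower in 3 cases. Over all tested genes 7.89% were called lower. Dlx2 had a log2 change of -0.75 (p = 0.00234 after adjustment, SE 0.186) and Sp8, a zinc finger factor of the ridge, one of -0.64 (p = 0.00928 after adjustment, SE 0.183) in the authors' deposited table, 2 of 6 ridge genes with an adjusted p. The other ridge genes with an adjusted p were not called. Fgf8 was at -1.20 (SE 0.609), Dlx3 at -0.39 (SE 0.145), Fgf9 at -0.012 (SE 0.142) and Dlx5 at 0.065 (SE 0.143). Wnt7b, a ligand of the ectoderm, fell by 0.32 (p = 0.0324 after adjustment, SE 0.107) on the log2 scale, the 1 of 6 called in its list, in the authors' deposited table. After the GC and length trend was subtracted, 4 of the 13 were still called, St14 (-0.76), F11r (-0.33), Sp8 (-0.62) and Dlx2 (-0.58), and the median of the 49 was -0.16. Of all 10945 genes, 1.64% were then called lower.

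Among markers of other cell types, 1 of 16 mesenchyme, 1 of 9 endothelial and 2 of 6 erythroid genes with an adjusted p were called lower, beside 7.89% of all tested genes. Of the 16 mesenchyme genes the called one was Lhx2, a LIM homeobox gene of the distal limb, with a log2 change of -0.41 (p = 0.00587 after adjustment, SE 0.110) in the authors' deposited table. The mesenchyme median was 0.028, and the summed rebuilt level was 160663 in Inv1 and 164589 in Inv1DelCTCF. Of 9 endothelial genes with an adjusted p, Cdh5 fell by 0.24 on the log2 scale (p = 0.0275 after adjustment, SE 0.079) in the authors' deposited table, and the list's sum was 10040.2 and 9090. Of 6 erythroid genes with an adjusted p, the embryonic globins Hba-x and Hbb-bh1 fell by 0.44 (SE 0.102) and 0.28 (SE 0.097) on the log2 scale in the authors' deposited table, and the sum was 89759 and 84341. Hba-a1 was listed at 0. None of the 7 muscle, 4 macrophage and 3 nerve genes with an adjusted p was called in the authors' Wald test with DESeq2 (0, 3 and 1 genes of these lists had an unadjusted p under 0.05), and their sums were 6813 and 9439 for muscle, 1462 and 1775 for macrophages, and 1553 and 1823 for nerve. The 2 most abundant genes of each were Actc1 (0.69) and Met (0.055) for muscle, Csf1r (0.42) and Mrc1 (0.067) for macrophages, and Tubb3 (-0.14) and Erbb3 (0.29) for nerve, as log2 changes in the authors' deposited table. All 10 macrophage genes had values above 0, of which 4 had an adjusted p. Over all tested genes, 5962 of 11218 values were below 0. After the GC and length trend was subtracted, Hba-x (-0.33, adjusted p = 0.0417) and Hbb-bh1 (-0.32, adjusted p = 0.0312) were still called lower, while Lhx2 and Cdh5 were not. Csf1r (0.53, adjusted p = 0.0393), 1 of 4 macrophage genes, and the collagen gene Col1a2 (0.25, adjusted p = 0.0282), 1 of 16 mesenchyme genes, were called higher. These p-values are from a Wald test with the deposited DESeq2 SE. Of all 10945 genes, 180 (1.64%) were then called lower and 220 higher. The part of these cell types in the falls of the keratins and junction genes was not tested.

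**Figure D5:**
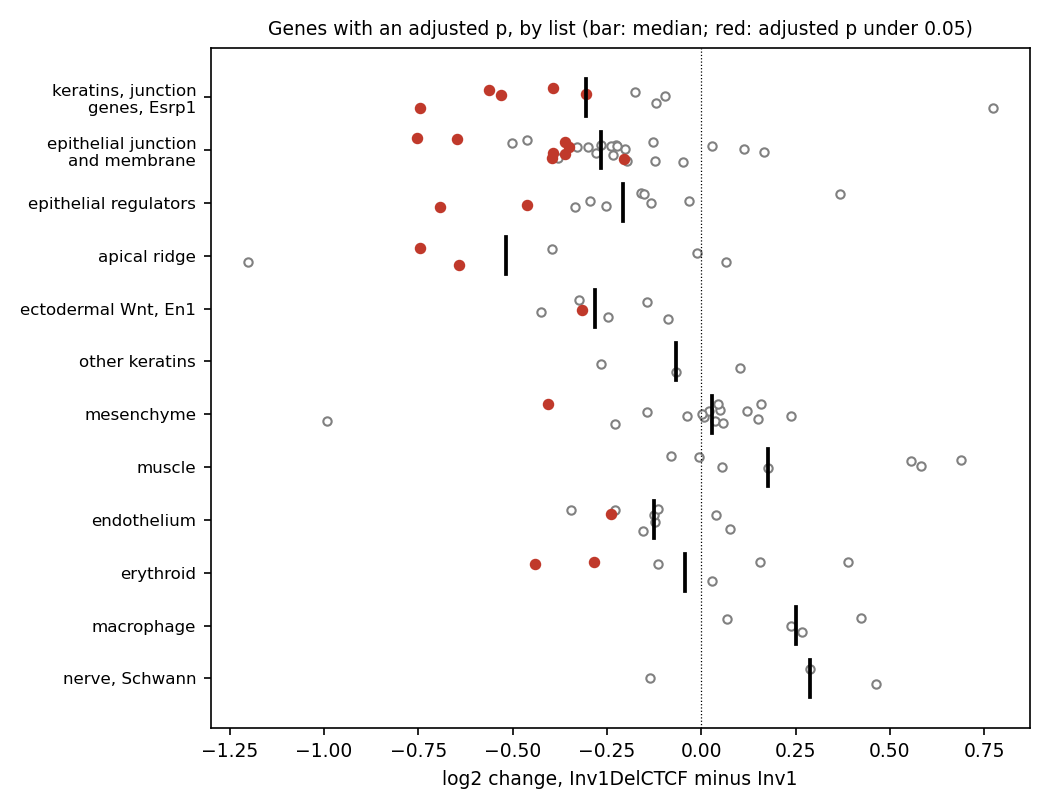
Log2 change, Inv1DelCTCF minus Inv1, of each gene with an adjusted p, by list, with the median as a bar and genes under an adjusted p of 0.05 in red. Of the 10 described genes 9 are drawn, since Krt19 has no adjusted p. These 9 and the 4 further ectoderm lists have medians between -0.52 and -0.21. The other medians are -0.13 (endothelium), -0.067 (other keratins), -0.043 (erythroid), 0.028 (mesenchyme), 0.18 (muscle), 0.25 (macrophage) and 0.29 (nerve).

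Wnt6, Wnt10a and Abca12, 3 ectodermal genes on chromosome 1, which also carries the inversions, could be followed against wild type, and of these Abca12 alone was called. A change in ectoderm and a local effect of the inversions cannot be told apart in them. Abca12, a lipid transporter gene of the epidermis, rose in Inv3 and Inv4 and was not called in Inv1 and Inv2. Its rebuilt level was 16.9 in wild type, 21.7 in Inv1, 26.5 in Inv2, 42.1 in Inv3 and 36.9 in Inv4. The log2 change in the authors' deposited tables was 1.32 (p = 1.05e-05 after adjustment, SE 0.257) in Inv3, 1.13 (p = 0.000528 after adjustment, SE 0.259) in Inv4, 0.65 (p = 0.160 after adjustment, SE 0.254) in Inv2 and 0.37 (p = 0.890 after adjustment, SE 0.259) in Inv1. In Inv1DelCTCF against Inv1 it had a log2 change of -0.02 (SE 0.613) in the authors' deposited table, with its adjusted p empty. The comparisons with wild type list few genes. Of those listed, 7 of 78 (8.97%) were called in Inv1 and 3 of 74 (4.05%) in Inv2. In Inv3 26 of 79 (32.9%) were called, and in Inv4 15 of 72 (20.8%).

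Wnt6 and Wnt10a, ligand genes of the limb ectoderm, were not called in any inversion. Wnt6 had log2 changes between -0.080 and 0.042, and Wnt10a between 0.25 and 0.46 with adjusted p values down to 0.0688, in the authors' deposited tables. The 4 comparisons share the wild type libraries. In Inv1DelCTCF, Wnt6 had a log2 change of -0.43 (p = 0.0509 after adjustment, SE 0.155) and Wnt10a one of -0.63 (SE 0.405, left without an adjusted p) in the authors' deposited table.

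Reads of some keratins can fit other genes, which bears on their counts. Of the stretches of 50 bases in the longest Krt8 transcript, 26.9% also occur in the transcript of Krt8-ps, a pseudogene. For Krt14 14.4% occur in another gene, most of them in Krt16, and for Krt5 8.52%, most of them in Krt6a. Krt16 and Krt6a had means of only 0.660 and 6.37 normalised counts in the authors' deposited table. The share was under 1% for Krt15 (0.666%) and Krt18 (0.720%) and 0 for Krt19, Cdh1, Cldn6, Epcam and Esrp1. How reads with several matches were counted is not given in the sources used here.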

How the data were processed

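Distal forelimb RNA-seq was deposited as tables of the authors' own comparisons. STAR, DESeq2 and the mouse build mm9 are named in the submitters' processing notes, without versions. Per the file headers, each table gives a mean normalised count (a signal over all libraries of a fit), a log2 fold change with its SE on the log2 scale, a Wald score, a p-value and an adjusted p-value. The authors left the adjusted p empty for genes of low mean, and it stays empty here. The sum of the deposited means was 3.02e+07 counts in the comparison of Inv1DelCTCF with Inv1.

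The headers do not name the numerator. Inv1 levels rebuilt from the fit against wild type were set against those from the Inv1DelCTCF table for 49 genes, under each sign convention. The median absolute residual was 0.0124 (log2) with positive meaning higher in the mutant and, in the Inv1DelCTCF table, higher in Inv1, and 0.107 to 0.132 otherwise. That table's sign was turned, so negative is lower in Inv1DelCTCF.

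Intervals are normal 95% intervals from the SE. Length and GC content were those of the longest GENCODE M21 transcript, found for 97.6% of genes with an adjusted p and 97.3% of those called. The trend had terms up to the cube in both and their product, weighted by 1/SE squared, and was tested on simulated data. GRCm38 served only for names, transcripts and promoters. Tables were handled in Python 3.11.15 with pandas 2.3.3, tests run in SciPy 1.17.1 with numpy 2.4.6, and plots drawn in matplotlib 3.10.9.

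The genes and lists were chosen with earlier results of these data known. Named genes were the 10 genes, Wnt6, Wnt10a, Abca12, the defining markers Trp63, Grhl2 and Grhl3, up to 4 called genes of each list and direction with the smallest adjusted p, and the 2 most abundant genes of a list with none. Hba-a1, Krt16, Krt6a, Col1a2, Fgf8, Fgf9, Dlx3 and Dlx5 were named after their values were seen. A p-value here reflects only how these libraries vary.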

Additional observations from a re-analysis of the deposited data

Results flagged for a closer look

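The change of Abca12 against wild type differed between Inv3 and Inv1. The difference of log2 changes, Inv3 minus Inv1, was 0.95 (SE 0.365; adjusted p = 0.0388 over the 78 genes listed in both tables), tested by a Wald test whose SE combined both deposited SEs, with Benjamini-Hochberg adjustment. The change was 0.37 in Inv1 and 1.32 in Inv3. By the same test Inv4 minus Inv1 was 0.76 (SE 0.366; adjusted p = 0.167 over 72 genes) and did not pass. Of 18 differences over Abca12, Wnt6 and Wnt10a, that of Abca12 for Inv3 minus Inv1 was the 1 that passed. Both changes rest on the same wild type libraries, which the combined SE counts as if separate. Their shared variance cancels in the difference but is kept in that SE, and a difference that did not pass is not shown to be absent.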

How the results depend on the processing

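The count of 5 genes called lower was 3 at an adjusted p under 0.01, 3 with a log2 change of at least 0.5 in size, and 1 after the GC and length trend was subtracted, and 5 under the other 4 settings (adjusted p under 0.1, adjustment over every gene with a p-value or over means of at least 10, and the median of all genes subtracted). At an adjusted p under 0.1, Krt15 was called higher. For the 4 further ectoderm lists the count of 13 was 5 with a log2 change of at least 0.5 and 4 after the trend was subtracted, and between 9 and 19 otherwise. Krt14 turned to 0.026 after the trend was subtracted. The median of the 10 genes, -0.24, was -0.23 with the median of all genes subtracted. The direction of the fold changes was the same with means of at least 100 (residual 0.0161) and 20 (0.0176). The 2 calls of Abca12 were kept at an adjusted p under 0.01. The alternatives for the chromosome 1 genes and the subtracted median of the 10 genes were chosen after seeing the data. No paired analysis was possible because the files hold no values per library, and no replicate could be left out for the same reason.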

Other observations

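Most other keratin genes were too low to be tested. Of 46 other keratin genes in the table, 8 had a mean of at least 10, 3 had an adjusted p and none was called in the authors' Wald test with DESeq2 (0 had an unadjusted p under 0.05). Krt17, a type I keratin of periderm and epidermal appendages and the most abundant of them at 480.2 normalised counts, lay at -0.067 on the log2 scale (SE 0.131; adjusted p = 0.790, DESeq2). Krt7, a simple type II keratin at 293 counts, was at -0.27 (SE 0.152; adjusted p = 0.254, DESeq2), both in the authors' deposited table. Whether these differ from the changes of Krt8 and Krt18 was not tested.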
